A study of Mus musculus with 44 samples.

Results

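The contacts of the Slc45a3 long-form promoter were compared between mouse liver and kidney at every restriction fragment of its 4C-seq table, using the smoothed signal of each tissue and the variance deposited with it. The table held 6071 fragments out of 30070 in the tables of all 5 baits of the series, and it covered 2000 kb on either side of the bait. A total of 4 libraries stood behind it, labelled EF and GH in each tissue. They came from wild-type (WT) C57BL/6 mice of 8 to 12 weeks, fed ad libitum and taken at zeitgeber time (ZT) 20. Both tissues thus shared genotype, strain, feeding and time, and tissue was the only difference that the labels give. Nuclei were made from organs of individual animals and fixed with 1.5% formaldehyde for 10 minutes. The deposited table held 1 value per tissue and fragment, so the spread between EF and GH could not be recovered, and 4C-seq values cannot be checked against tissue markers. The series also held 24 kidney RNA libraries from 129SV mice on night-restricted feeding, WT or knockout (KO) for Bmal, and 20 4C-seq libraries in all.

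In 4C-seq, chromatin is crosslinked, cut and religated, and the fragments joined to a chosen bait are counted, so that a higher signal means that a place was captured together with the bait more often. Signal is highest next to any bait and falls with distance, because neighbouring DNA meets by chance. Promoters can also be captured with distant enhancers or other promoters, and such contacts can differ between tissues. Slc45a3 encodes a membrane protein of the SLC45 family of sugar transporters, known as prostein in the prostate. The gene has alternative promoters, and the baits of this study are named for its long and short forms.

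The fragment offsets of the table matched the midpoints of GATC fragments of the mouse GRCm38 genome at 1 place of chromosome 1. The long-form bait lay there at position 131962937, 30 bp before the annotated start of the long transcript (ENSMUST00000177943, 131962967, plus strand). The short transcript (ENSMUST00000027695) started at 131970609, inside the gene body, and the short-form bait lay at 131971381, 8444 bp from the long-form bait. Positions below are distances from the long-form bait, and negative values lie upstream with respect to Slc45a3 transcription. The promoter windows of both forms are shown because these are the places the comparison is about. Each is the promoter window of a RefSeq transcript on GRCm38, plus strand, chr1:131962665-131962964 for the long form and chr1:131970359-131970658 for the short form, with CG pairs and TAGGTCA in capitals. The long-form window ends 3 bp before the GENCODE start named above, and the short-form window contains the start of that form.
Long start: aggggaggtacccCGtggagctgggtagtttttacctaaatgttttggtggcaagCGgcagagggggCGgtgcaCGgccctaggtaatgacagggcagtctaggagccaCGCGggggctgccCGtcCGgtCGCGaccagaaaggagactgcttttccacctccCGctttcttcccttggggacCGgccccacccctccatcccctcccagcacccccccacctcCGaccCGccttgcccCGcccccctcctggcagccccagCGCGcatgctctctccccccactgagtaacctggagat
Short start: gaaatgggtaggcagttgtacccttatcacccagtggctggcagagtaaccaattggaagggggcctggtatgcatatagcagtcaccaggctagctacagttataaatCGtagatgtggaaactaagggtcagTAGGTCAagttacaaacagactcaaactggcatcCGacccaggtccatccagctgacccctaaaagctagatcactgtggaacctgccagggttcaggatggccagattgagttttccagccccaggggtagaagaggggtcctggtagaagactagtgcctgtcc
The long-form window held 17 CG pairs and 66.3% G and C, and 31.4% of 32851 RefSeq mouse promoter windows of this length held as many CG pairs or more. The short-form window held 2 CG pairs and 51.3% G and C, and 85.9% of windows held as many or more. The median window held 7. On either strand, GGGCGG, the GC box, which itself holds a CG pair, was found 2 times in the long-form window and 0 times in the short-form window, and 35.7% of all windows held it. TAGGTCA, the core bound by ROR and REV-ERB receptors, was found 0 times in the long-form window and 1 time in the short-form window, at base 135, and 2.61% of windows held it. The E-box CACGTG (7.15% of windows) and the D-box TTATGTAA (0.938% of windows) were found in neither. These matches describe the letters of the windows and are not evidence of binding.

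Some fragments inside genes that differed between the tissues by at least 2 standard errors, though not after adjustment for the number tested, are also shown by sequence. Each is the whole GATC fragment at which the standardised difference of a region was most extreme, on GRCm38, plus strand, with GATC and CATG in capitals. Of the 6071 listed fragments, 6004 (98.9%) held a CATG, against 285 of the 3868 GATC fragments of the same window (7.37%) that were not listed, and the enzymes are not given in the sources used here.
Higher in liver, -271.6 kb, in a Rab7b intron, chr1:131691236-131691353: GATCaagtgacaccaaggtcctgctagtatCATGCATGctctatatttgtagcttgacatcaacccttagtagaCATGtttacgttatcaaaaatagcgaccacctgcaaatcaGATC
Higher in kidney, 9.74 kb, in a Slc45a3 intron, chr1:131972586-131972769: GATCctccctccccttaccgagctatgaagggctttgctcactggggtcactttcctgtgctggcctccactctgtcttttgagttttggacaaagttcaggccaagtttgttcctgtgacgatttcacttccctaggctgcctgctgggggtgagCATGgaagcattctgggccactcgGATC
Higher in kidney, 71.9 kb, in an Mfsd4a intron, chr1:132034789-132034932: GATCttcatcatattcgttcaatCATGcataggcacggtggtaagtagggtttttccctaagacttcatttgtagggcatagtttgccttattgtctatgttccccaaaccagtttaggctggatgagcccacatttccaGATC

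The profiles of both tissues were alike in shape and level. The largest signal of the table was at the nearest listed upstream fragment, -3.56 kb, where it was 1.29 in liver and 1.31 in kidney, in the authors' units, whose scale is not given in the sources used here. Differences are therefore given as liver minus kidney and not as fold changes. The median signal over all fragments was 0.0361 in liver and 0.0344 in kidney, and the signal summed to 393.5 and 390.2. Across fragments, which are smoothed together and are not independent, the Pearson correlation between tissues was 0.975, and 0.840 over the 5477 fragments more than 200 kb from the bait. The read depth of these libraries is unknown. The standard error (SE) of a difference, from the summed variances, had a median of 0.0181 and reached 0.0456.

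Few places differed between the tissues by more than this error. A difference of at least 2 SE, used here to describe places and not as a replicate test, was found at 358 of 6067 fragments (5.9%), and a normal distribution would put 4.55% beyond it. Signal was higher in liver at 199 of these (3.28%) and higher in kidney at 159 (2.62%). Keeping 1 fragment per 10 kb left 18 of 400 (4.5%) beyond 2 SE, near the normal share. After Benjamini-Hochberg adjustment of normal p-values over all fragments, 0 passed 0.05, the smallest adjusted p was 0.0578, and 388 had an unadjusted p under 0.05. The remaining 4 fragments, from -1989 to -1986 kb, were listed at 0 with a variance of 0 in both tissues and were not tested. The same count at 2 SE gave 9.83% of fragments for the short-form bait, 15.8% for Mreg, 12.9% for Slc44a1 and 19.2% for Pi3kap1, which was taken at ZT8, so this bait had the lowest share of the 5. Whether the variance covers the spread between animals is not given in the sources used here, and p-values may be too small where it does not. The SE of liver and kidney were within 1% of each other at 31.5% of tested fragments. They were identical at -19.6 kb (0.0281) and at 9.74 kb (0.0205), so the ± values there cannot be read as separate estimates for each tissue.

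Close to the bait the tissues differed by side. Over the 7 fragments within 10 kb upstream, the median difference was -0.00292, and none reached 2 SE. All 9 fragments within 10 kb downstream were higher in kidney by at least 2 SE, beside 2.62% of all tested fragments. Their median difference was -0.0823, and it was -0.0575 with 1 fragment kept per 10 kb, from 1 fragment. The 9 are smoothed together, so they are not separate readings. They lie in the first part of the Slc45a3 gene body and belong to 1 region, chr1:131967540-131976266, of 14 fragments. The largest standardised difference of that region was in a Slc45a3 intron at 9.74 kb, with a signal of 0.758 ± 0.0205 (SE) for liver and 0.861 ± 0.0205 for kidney. The difference was -0.103 ± 0.0291 (SE), or -3.56 SE, with an adjusted p of 0.176. The region contains the start of the short form. The fragment that ends 44 bp before that start, at 7.41 kb, had 0.819 ± 0.0194 in liver and 0.902 ± 0.0194 in kidney, a difference of -0.0823 or -3.00 SE. At this fragment next to the short start, signal was thus higher in kidney by more than the error given with the table, although not after adjustment. The difference was larger past the short start, at -0.104 at 10.2 kb, so the smoothed signal does not single out that start.

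**Figure D1:**
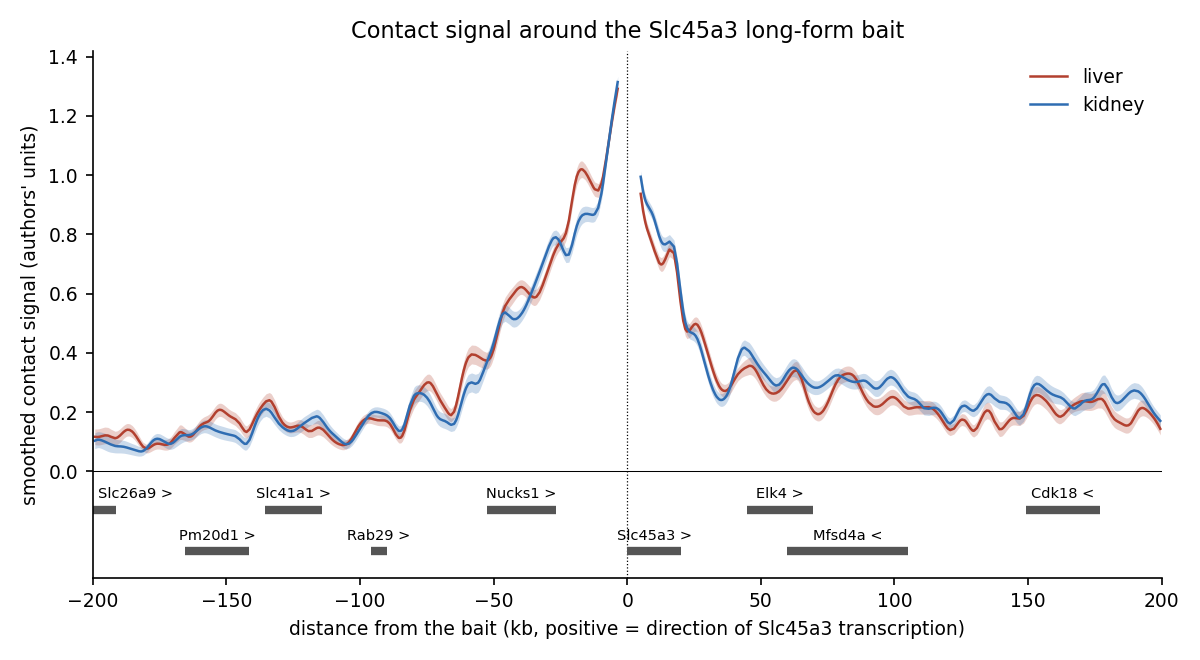
Smoothed contact signal in the authors' units (vertical axis) against distance from the long-form bait in kb (horizontal axis), liver in red and kidney in blue, with bands of 1 SE from the deposited variance and coding genes drawn below with their direction. The liver curve lies above the kidney curve around -19.6 kb (0.967 against 0.803), and the kidney curve lies above over the start of the Slc45a3 gene body (0.861 against 0.758 at 9.74 kb).

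Upstream, the region with the largest difference of the table lay between Slc45a3 and Nucks1, a gene for a nuclear phosphoprotein that binds chromatin. It held 20 fragments, overlapped no annotated gene in GENCODE M21, and lay 3174 bp from the end of Nucks1. Its most extreme fragment, at -19.6 kb, had 0.967 ± 0.0281 (SE) for liver and 0.803 ± 0.0281 for kidney. The difference was 0.164 ± 0.0398 (SE), or 4.13 SE, with an adjusted p of 0.0578. This was the only region whose most extreme fragment had an adjusted p under 0.1. Moving further upstream, the sign changed and changed again. In a Nucks1 exon at -31.6 kb, kidney was higher, at 0.702 ± 0.0244 against 0.628 ± 0.0245 in liver (-2.12 SE). In a Nucks1 intron at -40.2 kb, liver was higher, at 0.621 ± 0.0248 against 0.524 ± 0.0247 (2.78 SE, chr1:131920034-131924532). The Nucks1 start site itself, at -52.4 kb, had 0.373 ± 0.0285 in liver and 0.364 ± 0.0286 in kidney, which differed by 0.22 SE. At the start itself no difference beyond the error was seen, while places within the gene and on either side of it differed by 2 SE or more.

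The remaining regions within 200 kb upstream were all higher in liver. At -56.8 kb, in a region 3636 bp before the Nucks1 start, liver had 0.393 and kidney 0.295 (2.14 SE), and at -71.4 kb it was 0.264 and 0.190 (2.09 SE). Within Pm20d1, whose product makes and cleaves N-acyl amino acids, it was 0.207 and 0.131 at -152.1 kb (2.41 SE). In a region 4384 bp from Slc26a9, an anion transporter gene, it was 0.140 and 0.0770 at -186.2 kb (2.17 SE). Each of these rests on 2 to 13 neighbouring fragments and on a difference of less than 3 SE.

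Downstream of the gene body the balance was the other way. At 30.3 kb, past the end of Slc45a3, liver was higher, at 0.393 ± 0.0234 against 0.323 ± 0.0234 (2.12 SE). From there to 200 kb, the 4 further regions were all higher in kidney. The first, at 42.7 kb, lay 1411 bp before Elk4, an ETS-family transcription factor gene, with 0.340 in liver and 0.410 in kidney (-2.07 SE). The next covered the end of Elk4 and part of Mfsd4a, a gene for a transporter-like membrane protein read from the other strand (chr1:132031299-132038215, 16 fragments). At its most extreme fragment, 71.9 kb, liver had 0.194 ± 0.0231 and kidney 0.284 ± 0.0230, a difference of -0.0905 ± 0.0325 (SE) or -2.78 SE. In a region 6820 bp from Cdk18, a cyclin-dependent kinase gene, liver had 0.143 and kidney 0.233 at 140.1 kb (-2.66 SE). On the far side of Cdk18, at 187.5 kb, liver had 0.155 ± 0.0255 and kidney 0.262 ± 0.0257, a difference of -0.107 ± 0.0363 (SE) or -2.94 SE (chr1:132147402-132152896). Over the whole table this fragment lay next to the lowest difference found, -0.107 at 188.3 kb.

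A tilt between the sides was seen over a wider range than the regions. Between 50 and 500 kb upstream, liver was higher at 69.7% of 700 fragments, with a median difference of 0.0134, and 43 fragments were higher in liver and 6 in kidney by at least 2 SE. Between 50 and 500 kb downstream, liver was higher at 22.8% of 683 fragments, with a median difference of -0.0227, and the counts were 7 and 50. The downstream bin from 50 to 200 kb held 38 fragments higher in kidney by at least 2 SE and 0 higher in liver, out of 227. The upstream bin from 50 to 200 kb held 0 higher in kidney and 21 higher in liver, out of 231. Neighbouring fragments are smoothed together, and the correlation of the difference between neighbours fell under 0.5 at 6 kb. With 1 fragment kept per 10 kb, liver was higher at 30 of 45 upstream fragments (66.7%) and at 10 of 45 downstream fragments (22.2%) between 50 and 500 kb. Of these 45 upstream, 3 were higher in liver and 0 in kidney by at least 2 SE, and downstream the counts were 1 and 4. Over all tested fragments of the window, 3.28% were higher in liver and 2.62% in kidney by at least 2 SE.

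**Figure D2:**
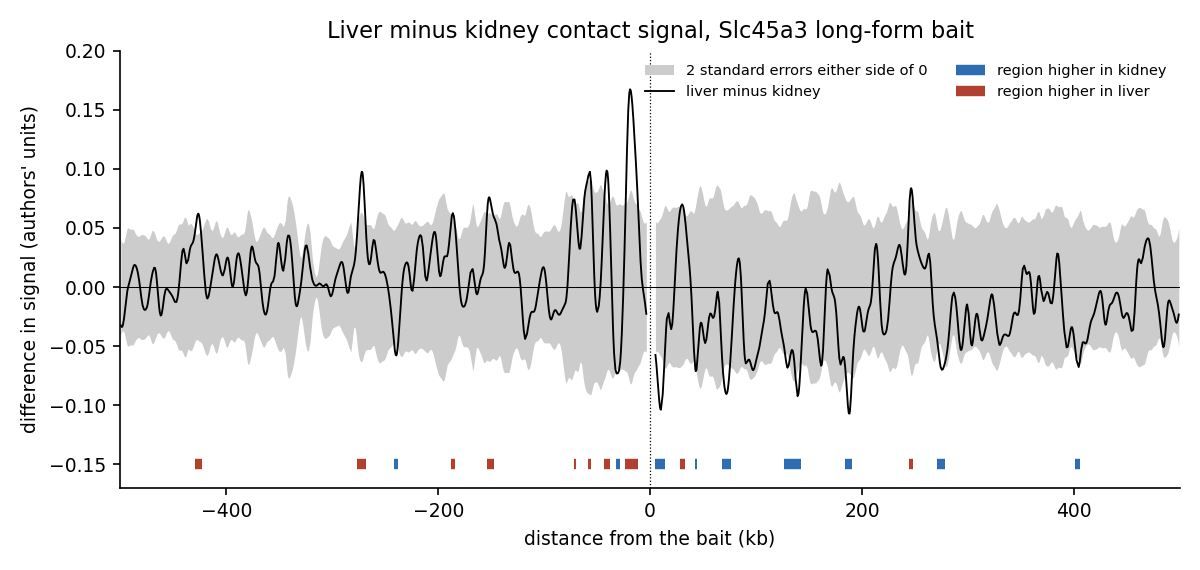
Liver minus kidney signal in the authors' units (vertical axis) against distance from the bait in kb (horizontal axis), with a grey band of 2 SE on either side of 0 and bars for regions past it, red where liver was higher and blue where kidney was higher. Within 500 kb, 8 of the 10 regions higher in liver lie upstream and 7 of the 9 higher in kidney lie downstream.

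As a share of the signal between 50 and 500 kb, the upstream side held 44.2% in liver and 37.3% in kidney, a gap of 6.89 percentage points, while 50.6% of the fragments lay upstream. The gap measured in the same way was 9.46 points for the short-form bait, 19.9 for Mreg, 3.33 for Slc44a1 and -0.863 for Pi3kap1, taking the side of lower coordinates in each. A gap of this size was therefore not particular to the long-form bait. In the bin from 10 to 50 kb upstream, the median difference was 0.0583 over 61 fragments although the median signal was lower in liver (0.717) than in kidney (0.739). With 1 fragment per 10 kb, the 4 fragments of that bin had a median difference of 0.0109, and where that fall came from was not tested.

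Beyond 500 kb the differences were small in signal. The median difference was 0.00277 between 500 and 1000 kb upstream and -0.00167 downstream, and between 1000 and 2000 kb it was -0.000222 upstream and 0.00107 downstream. Signal did not fall evenly on both sides. Between 1000 and 2000 kb it had a median of 0.0291 in liver and 0.0282 in kidney downstream, against 0.00228 and 0.0047 upstream. The upstream signal dropped near -1300 kb, where the median per 100 kb went from 0.0205 to 0.0046 in liver and from 0.0167 to 0.0055 in kidney. Both tissues showed this drop at the same place, and beyond it the medians were near or below the median SE of the difference.

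**Figure D3:**
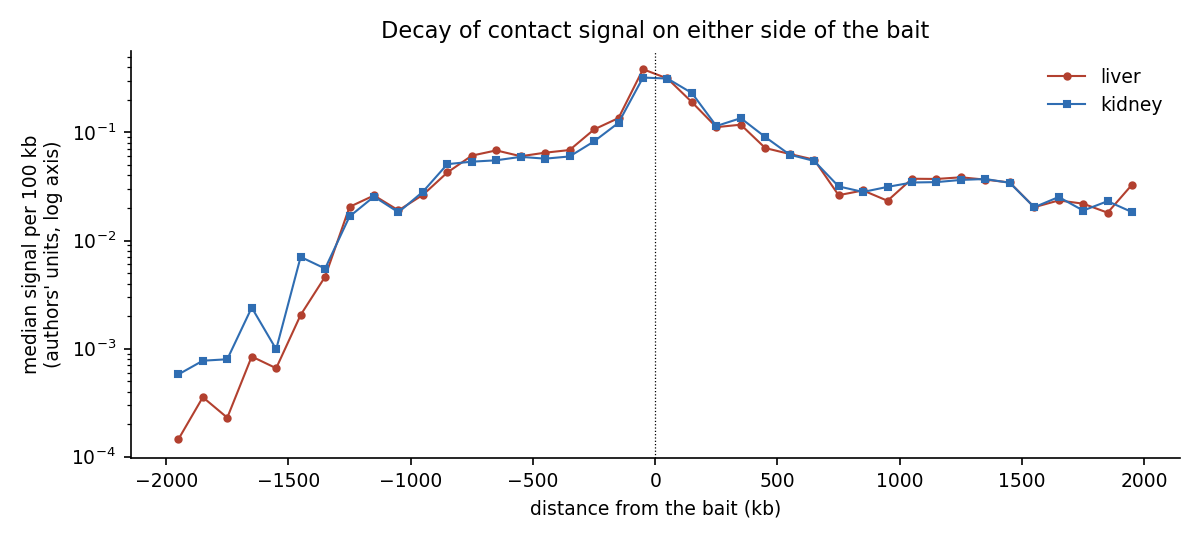
Median signal per 100 kb in the authors' units on a log axis (vertical) against distance from the bait in kb (horizontal), liver as red circles and kidney as blue squares. Both tissues fall from 0.385 and 0.322 in the bin next to the bait upstream to under 0.01 beyond -1300 kb, while downstream both remain above 0.018 up to 2000 kb.

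Joining fragments past 2 SE of the same sign across gaps of up to 10 kb gave 48 regions, 26 higher in liver and 22 higher in kidney. Of the regions, 35 overlapped an annotated gene and 3 held the start site of a coding gene, and 7 had fewer than 3 fragments. Their median length was 3822 bp. Fragments higher in kidney had a median of 47.3% G and C and those higher in liver 45.4%, against 45.5% over all fragments. Over all fragments the Pearson correlation of G and C content with the difference was -0.029, so base composition moved little with it.

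Several of the most extreme regions were far from the bait and had low signal. At 1157.5 kb, in a region 6882 bp from Pik3c2b, which encodes a class II phosphoinositide kinase, liver had 0.0667 ± 0.0101 (SE) and kidney 0.0194 ± 0.00967 (3.39 SE, chr1:133115569-133123036). At 1952.2 kb, in an exon of Prelp, which encodes a leucine-rich proteoglycan of connective tissue, liver had 0.0595 ± 0.0120 and kidney 0.00668 ± 0.0115 (3.18 SE, chr1:133910734-133919064). In Thsd7b at -1791 kb, liver had 0.0115 and kidney 0.00211 (2.87 SE, chr1:130169254-130174800), both small against signals near the bait. At 985.4 kb, in a region 3538 bp from Lrrn2, kidney was higher, at 0.0423 ± 0.00843 against 0.0054 ± 0.00756 (-3.25 SE, chr1:132943543-132951788). At -910 kb, in a region that overlaps Mapkapk2, which encodes a stress-activated kinase, kidney had 0.0634 and liver 0.0128 (-2.75 SE, chr1:131052069-131055188). In a Lemd1 intron at 274.1 kb, kidney had 0.135 and liver 0.0681 (-2.68 SE, chr1:132234337-132240925). Elsewhere in Lemd1, at 246.0 kb, liver was higher, at 0.181 against 0.0981 (2.25 SE). The smallest adjusted p among these 7 was 0.244.

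At the start sites of the 64 coding genes in the window, differences were mostly within 2 SE. Signal was higher in liver at 35 and in kidney at 29. The 64 starts were read at 61 distinct fragments, because some neighbouring starts share their nearest fragment. A difference of at least 2 SE was found at 2 starts in favour of liver and 1 in favour of kidney, out of 64, beside 3.28% and 2.62% of all fragments. Rab7b, a small GTPase of transport from endosomes to the Golgi, had 0.134 ± 0.0215 (SE) in liver and 0.0601 ± 0.0210 in kidney (2.45 SE) at -274.2 kb. The start lies inside a region higher in liver that reached 3.13 SE in a Rab7b intron, with 0.162 against 0.0645 (chr1:131687083-131694768). Ikbke, a kinase of innate immune signalling, had 0.118 ± 0.0226 in liver and 0.0522 ± 0.0217 in kidney (2.10 SE) at -683.3 kb. In an Ikbke exon at -705.2 kb the sign was opposite, with 0.0198 in liver and 0.0571 in kidney (-2.04 SE). Snrpe, a core protein of spliceosomal particles, had 0.0138 ± 0.00916 in liver and 0.0471 ± 0.00950 in kidney (-2.52 SE) at 1647 kb. Taking the median over fragments within 5 kb of the start in place of the nearest fragment, Ikbke had 0.0490 and Snrpe -0.0271, each under 2 SE.

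None of the coding genes starting within 200 kb of the bait reached 2 SE at its start. At the Slc45a3 start the nearest listed fragment was 3593 bp away, and its signal of 1.29 in liver and 1.31 in kidney differed by -0.82 SE. Elk4 came nearest to the threshold, with 0.348 ± 0.0263 in liver and 0.417 ± 0.0263 in kidney (-1.86 SE). Mfsd4a had 0.212 ± 0.0221 and 0.253 ± 0.0219 (-1.32 SE), and Cdk18 0.245 ± 0.0312 and 0.289 ± 0.0303 (-1.02 SE). These 3 downstream genes were each higher in kidney, by amounts within the error. Upstream, Slc41a1, a magnesium transporter gene, had 0.236 ± 0.0257 in liver and 0.211 ± 0.0254 in kidney (0.70 SE). Rab29, a small GTPase gene, had 0.177 ± 0.0168 and 0.197 ± 0.0166 (-0.81 SE), and Pm20d1 had 0.127 ± 0.0221 and 0.122 ± 0.0221 (0.17 SE). In order of level in liver, the starts near the bait ran Nucks1, Elk4, Cdk18, Slc41a1, Mfsd4a, Rab29 and Pm20d1. Of the 6 steps between neighbours in that order, only that from Elk4 to Cdk18 exceeded 2 SE in liver (2.54 SE).

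Further away, the 5 genes with the largest standardised differences in favour of liver were Rab7b, Ikbke, Optc (1.89 SE), Prelp (1.72 SE) and Il10 (1.53 SE). Optc, like Prelp, encodes a small leucine-rich proteoglycan, and Il10 an anti-inflammatory cytokine. Optc and Prelp neighbour each other near the downstream end of the window. Toward kidney the 5 were Snrpe, Il20 (-1.69 SE), Klhdc8a (-1.60 SE), Rbbp5 (-1.60 SE) and Lax1 (-1.47 SE). Il20 encodes a cytokine of the Il10 family, Rbbp5 a subunit of histone methyltransferase complexes, and Lax1 an adaptor of lymphocyte signalling. Klhdc8a, at 335.7 kb, had 0.110 ± 0.0177 in liver and 0.150 ± 0.0177 in kidney.

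**Figure D4:**
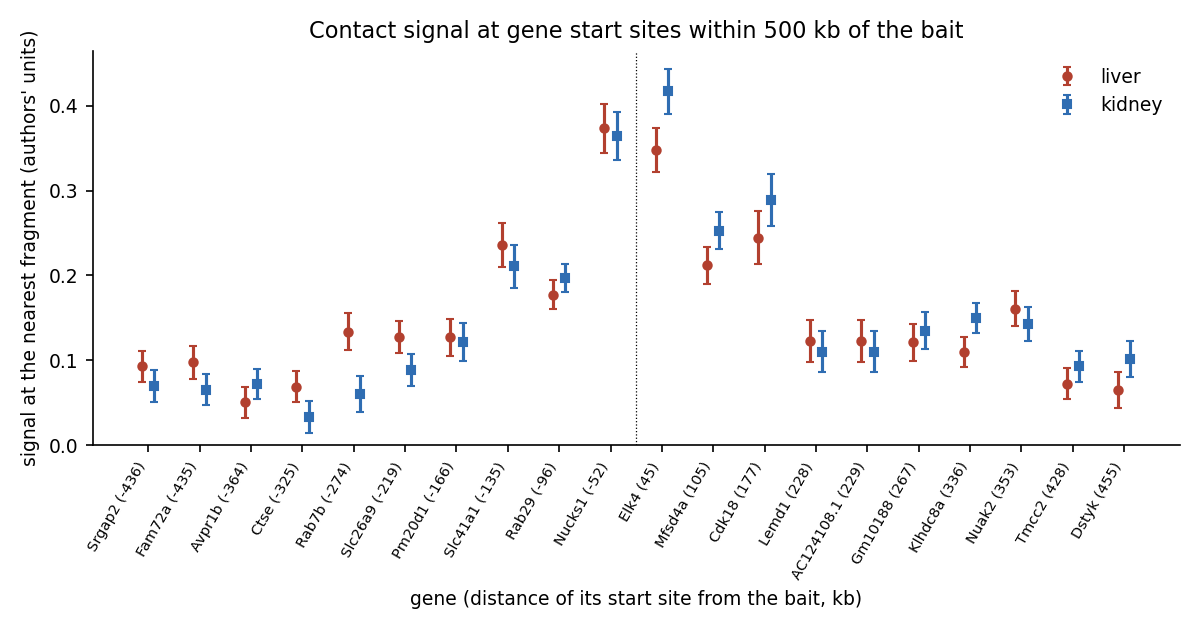
Signal in the authors' units (vertical axis) at the listed fragment nearest to the start of each coding gene within 500 kb of the bait, ordered along the chromosome (horizontal axis, with the distance in kb), liver as red circles and kidney as blue squares with bars of 1 SE; Slc45a3 itself is not drawn. Upstream 8 of 10 genes are higher in liver and downstream 7 of 10 are higher in kidney, and only at Rab7b do the values differ by 2 SE or more. The 10 downstream genes are read at 9 distinct fragments.

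Local maxima of signal, the highest value within 20 kb on either side, were counted between 10 and 500 kb as a reading of each tissue's profile. Liver had 17 and kidney 18, and 7 of each lay within 5 kb of a maximum of the other tissue (41.2% and 38.9%). No share expected by chance was computed. None was counted closer to the bait than -133.9 kb upstream and 153.2 kb downstream. The liver peak of 1.02 at -17.1 kb, for example, lies within 20 kb of the higher signal next to the bait. Shared maxima lay in Cdk18 at 153.2 kb, where liver had 0.257 ± 0.0289 (SE) and kidney 0.296 ± 0.0286, and next to the Cdk18 start at 177.4 kb in liver and 178.6 kb in kidney. Others lay in Slc41a1 at -133.9 kb in liver and -135.1 kb in kidney, and in Ctse, which encodes the aspartic protease cathepsin E, at -304.4 and -303.2 kb. At the Ctse maximum the levels were 0.0868 in liver and 0.0862 in kidney, a difference of 0.03 SE. Both tissues had a maximum in Rab7b, at different places. The liver maximum was at -271.6 kb, where liver was 3.13 SE above kidney, and the kidney maximum at -254.9 kb, where kidney had 0.121 and liver 0.133 (0.39 SE).

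Kidney RNA of the same genes was available from the other mice of the series, in TPM, a level scaled per transcript length and per library. In these libraries 4 kidney marker genes (Umod, Slc34a1, Aqp2 and Kap) had medians from 144 to 32338 TPM, and 5 liver markers (Alb, Apoa1, Ttr, Serpina1a and Cyp2e1) from 0.639 to 440 TPM. The long-start transcript of Slc45a3 ranged from 4.41 to 9.83 TPM over the 12 WT libraries, with a median of 7.25. The short-start transcript ranged from 1.48 to 4.15 TPM, with a median of 2.10, and the WT ranges did not overlap. In the 12 KO libraries they did, with the long form from 5.99 to 23.8 TPM (median 11.4) and the short form from 2.46 to 9.0 TPM (median 6.53). The lowest KO value of each form was in ZT4 replicate A, and the long form was above the short form in 23 of all 24 libraries. In the 2 WT libraries at ZT20, the time of the 4C-seq samples, the long form had 8.57 and 9.57 TPM and the short form 2.91 and 1.61 TPM. The transcripts share exons, so their split is an estimate of the quantification.

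Among the neighbours, Mfsd4a was the most abundant in WT kidney at ZT20, with 58.2 and 68.6 TPM. Pm20d1 had 23.4 and 30.7 TPM, Elk4 18.7 and 19.1, Cdk18 18.7 and 22.0, Nucks1 13.6 and 13.2, Rab29 10.1 and 10.5, and Slc41a1 3.53 and 3.33. Rab7b, whose contact at the start was higher in liver, had 0.814 and 0.998 TPM. Of the 38 coding genes of the window whose TPM averaged 1 or more across the 24 WT and KO libraries, 18 had a contact signal higher in liver at the start and 20 in kidney. Of the 26 under 1 TPM, 17 had it higher in liver and 9 in kidney, beside 35 and 29 over all 64 starts. Most of these contact differences were within the error, liver RNA was not analysed here, and the mice differed in strain and feeding, so no test was made.

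The short-form bait gave a reading of the same places from 8444 bp away. Its 4 libraries carry the same letters, and whether they come from the same animals is not given in the sources used here. Its signal summed to 654.8 in liver and 685.8 in kidney, above the sums of the long-form bait, so differences from both baits are not on an equal scale. Of the 12 regions named above as the 6 most extreme in each direction, 11 could be read from the short-form bait, and the region over the short start could not. At 10 of these 11 the sign was the same, and at 2 the difference from the short-form bait was also beyond 2 SE in that direction. These regions were picked for their long-form differences, and the share with the same sign over all fragments is not given here. Over the 6048 fragments listed for both baits, the Pearson correlation of their differences was 0.361. It was 0.0871 between 10 and 50 kb upstream and 0.643 between 10 and 50 kb downstream. At -19.6 kb the short-form bait had 1.15 in liver and 0.960 in kidney, a difference of 0.188 ± 0.0409 (SE) or 4.59 SE. At -40.2 kb it had 0.905 and 0.691, a difference of 0.214 ± 0.0565 (SE) or 3.79 SE. At -1791 kb, where signal was near 0, the sign was opposite, with a difference of -0.00918 ± 0.00430 (SE).

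The liver minus kidney difference itself differed between the baits at few fragments of the window as a whole, and at larger shares near the baits. Over 6048 fragments listed for both, the difference between baits had an adjusted p under 0.05 (Benjamini-Hochberg, normal approximation) at 26 (0.43%) and was beyond 2 SE at 427 (7.06%). Between 10 and 50 kb upstream, the difference between baits passed the adjusted threshold at 15 of 61 fragments and 2 SE at 45.9%. Between 10 and 50 kb downstream, it did so at 11 of 57 and at 31.6%. The 26 fell into 3 runs, at -47.6 to -43.0 kb, -26.7 to -22.9 kb and 21.0 to 28.4 kb, with 7, 8 and 11 fragments. In all 3 runs the short-form bait was the more liver-high, by 0.191 to 0.296. At 25.0 kb, in the run past the 3' end of Slc45a3, the long-form bait had 0.495 in liver and 0.463 in kidney, a difference of 0.032 ± 0.034 (SE). The short-form bait had 0.947 and 0.651 there, a difference of 0.295 ± 0.045 (SE). This fragment had the largest standardised difference between the baits, and the long-form bait showed no tissue difference beyond its error there. The largest difference in signal was -0.296, at -45.7 kb.

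**Figure D5:**
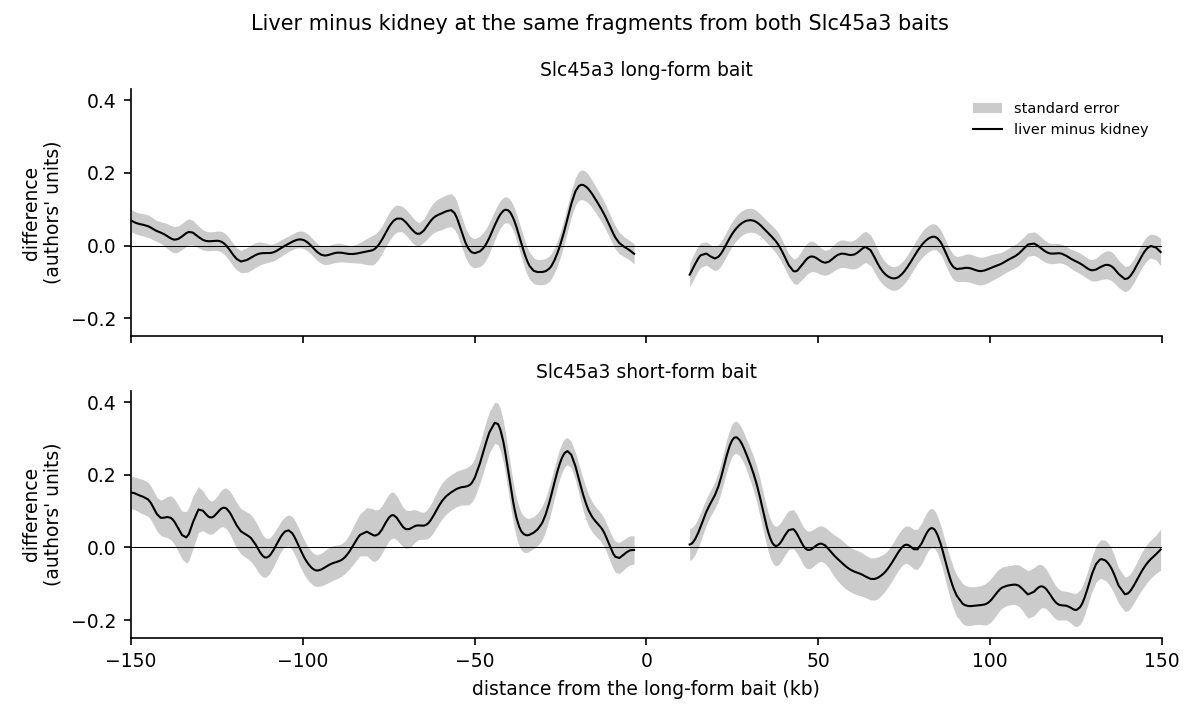
Liver minus kidney signal in the authors' units (vertical axes) against distance from the long-form bait in kb (horizontal axis) for fragments listed for both baits, long-form bait above and short-form bait below, with bands of 1 SE and the same vertical scale. The short-form curve rises higher near -43 kb, -23 kb and 25 kb, and both curves are above 0 at -19.6 kb, with 0.164 and 0.188.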

How the data were processed

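The authors deposited, for each bait, a smoothed contact signal (a score of unstated scale) and its variance per tissue and fragment, with both libraries of a tissue combined, per the file headers and values. The smoothing and normalization are not given in the sources used here, and the submitters' processing notes name mm9. Read depth is unknown. TPM per transcript was deposited by the authors, with kallisto 0.42.4 per the submitters' processing notes. Deposited z-scores and p-values of the 4C tables were not used.

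Fragment offsets were matched to GATC fragment midpoints of GRCm38 chromosome 1. All 6071 fit at 1 place, so coordinates come from this match, with GENCODE M21 annotation. The difference was liver minus kidney, and its standard error the root of the summed variances. Normal p-values were two-sided and adjusted by the Benjamini-Hochberg method over all 6067 tested fragments. Fragments past 2 standard errors were joined across up to 10 kb. Named were coding genes starting within 200 kb, the 5 most extreme further genes and 6 regions in each direction. TPM was summed per gene. A kidney marker gene and a fragment sequence are not reported here. Members, lists and tests were chosen with earlier results of these data known. Scripts ran in Python 3.11.15 with numpy 2.4.6, pandas 2.3.3 and scipy 1.17.1 and were tested on simulated data. Alternatives were other thresholds, a shift of kidney to liver beyond 200 kb, 1 fragment per 10 kb and a doubled error.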

Additional observations from a re-analysis of the deposited data

Results flagged for a closer look

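The liver minus kidney difference depended on the bait at 25.0 kb, where the difference between the long-form and the short-form bait was -0.264 ± 0.056 (SE), with an adjusted p of 0.00682 (Benjamini-Hochberg over 6048 fragments). The long-form bait had 0.495 in liver and 0.463 in kidney at this fragment, and the short-form bait 0.947 and 0.651. It was picked out as the largest standardised difference between the baits, among the 26 fragments that passed the adjusted threshold. Its size is thus that of a selected extreme. The baits have different signal sums (393.5 and 390.2 against 654.8 and 685.8), and the part of this in the result was not tested.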

How the results depend on the processing

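The count of 358 fragments at 2 standard errors (199 higher in liver, 159 in kidney) followed the threshold. The balance between the tissues did too, with more fragments higher in kidney at 1.5 standard errors. At 3 standard errors the count was 49 (36 and 13), at 1.5 it was 1002 (453 and 549), and with the standard error doubled it was 3 (3 and 0). With 1 fragment per 10 kb the share past 2 standard errors was 4.5%, beside 5.9% over all tested fragments and 4.55% under a normal distribution. Fewer fragments were tested there, and the count was 18 (10 and 8) of 400. With a minimum difference of 0.05, chosen after seeing the data, it was 187 (110 and 77). The 48 regions became 6 at 3 standard errors and 26 with that minimum. The median difference within 10 kb downstream was -0.0575 with 1 fragment per 10 kb, from 1 fragment. At the Ikbke and Snrpe starts the median within 5 kb (0.0490 and -0.0271) fell under 2 standard errors. The sign changed, within the spread, for the median between 1000 and 2000 kb downstream (-0.000794 as a weighted mean) and at the Nucks1 start (-0.0073 as the median within 5 kb). The other 45 values that answer a comparison and 33 at single genes kept their direction and side under the settings run, among them the shift of kidney to liver beyond 200 kb, which was -7.59e-05. Leaving out a library was not run because the table holds no values per library. No paired analysis was possible because the deposited columns combine both libraries of a tissue and carry no replicate numbers.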
